A study of Mus musculus with 8 samples.

Results

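The transcripts described here are those of the mitochondrial chromosome, taken as every gene whose symbol starts with mt-. They were 34 of the 28295 genes in the table, made up of 13 mRNAs, 2 ribosomal RNAs (rRNAs) and 19 transfer RNAs (tRNAs). GENCODE M21, a mouse gene annotation, lists 37 genes on this chromosome. The tRNA genes mt-Tf, mt-Td and mt-Tk are not in the table analysed here.

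Poly(A) RNA from epididymal white fat of male mice was sequenced after 8 weeks of feeding with a fat- and sugar-rich chow known as Western diet and a fast of 6 h. The WT group (4 libraries) carried Cul3-flox/flox alleles, in which loxP sites flank part of the gene, and no Cre. The KO group (4 libraries) carried AdipoQ-Cre;Cul3-flox/flox, in which the Adipoq promoter drives Cre in adipocytes, so that the other cells of the fat keep their Cul3. Both groups therefore shared the floxed alleles, the diet and the fast. No age is stated for the mice. Cul3 encodes cullin 3, a scaffold of ubiquitin ligases. The comparison asks how the transcripts of fat differ when adipocytes lose this scaffold.

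Values are FPKM, that is fragments per kilobase of gene length per 1000000 fragments, so levels can be set side by side between genes of different lengths. With M for 1000000 reads, the library totals behind FPKM came to 22.9 to 25.5 M for WT and 24.2 to 29.1 M for KO, as recovered from the steps of the values. Listed genes held 74.1% to 78.7% of them in WT and 62.6% to 66.1% in KO. Cul3 averaged 11.2 ± 1.13 FPKM for WT and 12 ± 1.28 for KO (SD, n = 4 each), which is 0.09 ± 0.10 on the log2 scale (limma, Benjamini-Hochberg adjusted p = 0.520; exact two-sided permutation test over libraries, p = 0.429). The targeted transcript was thus not lower in the libraries labelled KO, and gene-level values hold floxed and other exons together. The KO libraries are therefore called KO-labelled, and directions rest on the labels. The labels name mice but do not tie each library to an animal. Each library was taken as 1 mouse, and p-values measure the spread between these libraries.

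Mitochondrial DNA is a small circle copied and transcribed inside the organelle. Both of its strands are transcribed as long precursors that hold most of its genes in a row. The tRNAs lie between many of the mRNAs and rRNAs, and their excision frees the neighbouring RNAs, most of which then gain a short poly(A) tail. The proteins are core subunits of respiratory complexes I, III and IV and of the ATP synthase, which join nuclear-encoded subunits in the inner membrane. In fat these complexes burn fuel and supply the ATP that lipid synthesis uses.

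The mitochondrial mRNAs were lower in the KO-labelled fat. All 13 had a lower mean FPKM there, a direction that quantile normalization turned for mt-Co1 and mt-Nd1. Of these, 9 of 13 passed the test as lower (69.2%) and none passed as higher. Over all 14400 genes tested, 18.6% were called lower and 11.7% higher (30.4% in either direction). The median log2 fold change was -0.84 over the 13 mRNAs and -0.02 over all genes tested. For 7 of 13 mRNAs (53.8%), every KO-labelled library lay below every WT library, against 19.1% of all genes tested. These 7 were mt-Nd1, mt-Nd2, mt-Co1, mt-Co2, mt-Atp8, mt-Nd4 and mt-Cytb. A call means an adjusted p under 0.05 in limma on log2(FPKM + 0.5), and errors beside log2 fold changes are its standard errors. In bulk tissue, fewer cells of a type and less RNA per cell cannot be told apart.

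**Figure D1:**
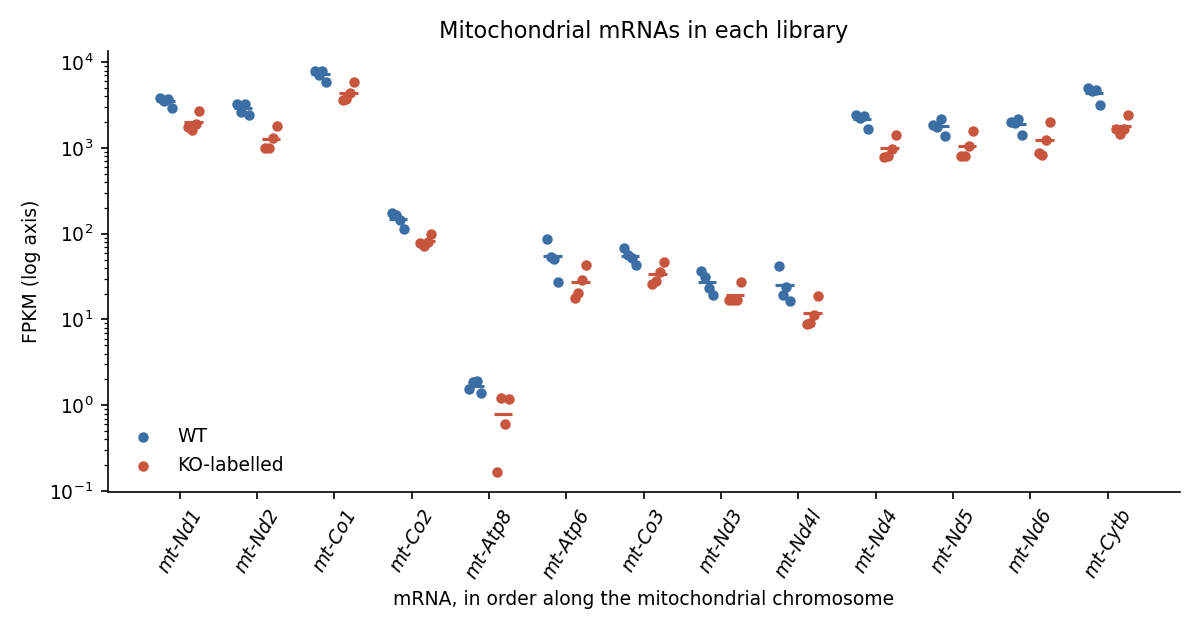
FPKM of each of the 13 mitochondrial mRNAs in each library (log axis), with WT and KO-labelled libraries as separate colours. The 4 KO-labelled values lie below the 4 WT values for 7 of 13 mRNAs, and the levels span from 0.168 FPKM for mt-Atp8 to 7943 FPKM for mt-Co1.

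Complex III has a single mitochondrial subunit, cytochrome b, encoded by mt-Cytb (ENSMUSG00000064370, chromosome M, 14145 to 15288). WT1 to WT4 had 5032, 4627, 4701 and 3170 FPKM of it, and KO1 to KO4 had 1685, 1470, 1678 and 2440 FPKM. The groups did not overlap, WT4 being the lowest WT library and KO4 the highest KO-labelled one. The means were 4382 ± 828 and 1818 ± 426 FPKM (SD, n = 4 each), a ratio of 0.415. The log2 fold change of -1.27 ± 0.21 (limma adjusted p = 0.00268) was the largest fall among the 13 mRNAs in this fit.

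Complex I, the NADH dehydrogenase, takes 7 subunits from mitochondrial DNA. The mRNA of its membrane subunit ND2, mt-Nd2 (chromosome M, 3914 to 4951), was at 3267, 2636, 3296 and 2435 FPKM in WT and at 1004, 1002, 1311 and 1827 FPKM in the KO-labelled libraries. It fell by 1.21 ± 0.22 on the log2 scale (limma adjusted p = 0.00418). For mt-Nd4 (10167 to 11544), which encodes a proton-pumping subunit, the values were 2455, 2266, 2343 and 1663 FPKM against 784, 796, 970 and 1426 FPKM. This fall came to 1.16 ± 0.22 on the log2 scale (log2 fold change -1.16, limma adjusted p = 0.00523). In both mRNAs the highest KO-labelled library was KO4 and still lay under the lowest WT library, WT4.

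The first subunit gene after the rRNAs, mt-Nd1 (2751 to 3707), was at 3855, 3497, 3713 and 2922 FPKM in WT and at 1748, 1641, 1919 and 2718 FPKM in the KO-labelled libraries (log2 fold change -0.82 ± 0.19, limma adjusted p = 0.0113). Its groups did not overlap, with KO4 close under WT4. The gene of another proton-pumping subunit, mt-Nd5 (11742 to 13565), was at 1860, 1755, 2165 and 1379 FPKM against 811, 812, 1061 and 1564 FPKM. Here KO4 lay above WT4, and the gene passed as lower (log2 fold change -0.79 ± 0.24, limma adjusted p = 0.0350). The only mRNA encoded on the opposite strand from the other 12, mt-Nd6 (13552 to 14070), was at 2003, 1979, 2196 and 1417 FPKM against 863, 826, 1223 and 2012 FPKM. KO4 lay above 3 of 4 WT libraries in mt-Nd6, and the gene did not pass (log2 fold change -0.70 ± 0.29, limma adjusted p = 0.0968).

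The FPKM values of the short complex I mRNAs, mt-Nd4l and mt-Nd3, were far lower. Both have near-identical annotated nuclear copies, described below, and the part of these copies in the values was not tested. The longer mt-Co2, mt-Atp6 and mt-Co3 also have such copies and had low values too. The WT libraries had 16.3 to 42.0 FPKM of mt-Nd4l (9877 to 10173) and the KO-labelled ones 8.78 to 18.6 FPKM, and it passed as lower with overlapping groups (log2 fold change -1.02 ± 0.32, limma adjusted p = 0.0414). Of mt-Nd3 (9459 to 9806) they had 19.4 to 36.9 and 16.6 to 27.4 FPKM, and it did not pass (-0.49 ± 0.23, limma adjusted p = 0.139). Complex I thus gave 5 called mRNAs of its 7.

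Complex IV, cytochrome c oxidase, takes its 3 catalytic-core subunits from mitochondrial DNA. The mRNA of COX1, mt-Co1 (5328 to 6872), was the most abundant of the 13 per length in all 8 libraries. It was at 7874, 7149, 7943 and 5943 FPKM in WT and at 3585, 3725, 4359 and 5929 FPKM in the KO-labelled libraries. The groups did not overlap, with KO4 just under WT4 (log2 fold change -0.74 ± 0.20, limma adjusted p = 0.0219). The mRNA of COX2, mt-Co2 (7013 to 7696), was at 175, 166, 144 and 114 FPKM against 77.1, 71.9, 81.1 and 98.4 FPKM, without overlap (-0.85 ± 0.16, limma adjusted p = 0.00464). That of COX3, mt-Co3 (8607 to 9390), ranged from 42.6 to 67.3 FPKM over the WT libraries and from 25.7 to 46.6 FPKM over the KO-labelled ones, and passed with overlap (-0.69 ± 0.20, limma adjusted p = 0.0328).

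The ATP synthase takes 2 membrane subunits from mitochondrial DNA, and neither mRNA passed the test. The WT libraries had 85.7, 53.7, 51.0 and 27.4 FPKM of mt-Atp6 (7927 to 8607) and the KO-labelled ones 17.6, 20.5, 28.7 and 43.5 FPKM, with WT4 under 2 of 4 KO-labelled libraries (-0.94 ± 0.37, limma adjusted p = 0.0859). Of mt-Atp8 (7766 to 7969) they had 1.40 to 1.92 and 0.168 to 1.2 FPKM, without overlap (-0.84 ± 0.29, limma adjusted p = 0.0549). These values of mt-Atp8 rest on 7 to 9 recovered reads per WT library and 1 to 6 per KO-labelled library, the lowest count among the mRNAs. The end of mt-Atp8 overlaps the start of mt-Atp6, and the end of mt-Nd4l overlaps the start of mt-Nd4. Both junctions are shown from the GENCODE M21 transcripts (GRCm38, plus strand, chrM:7897-7999 and chrM:10137-10203), with the shared bases in capitals, since a fragment that holds them belongs to both genes of a pair.
mt-Atp8/mt-Atp6 junction: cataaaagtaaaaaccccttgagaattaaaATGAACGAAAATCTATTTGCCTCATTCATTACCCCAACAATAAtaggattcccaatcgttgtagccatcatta
mt-Nd4l/mt-Nd4 junction: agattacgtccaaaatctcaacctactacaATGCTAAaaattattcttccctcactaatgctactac
The overlaps are 43 and 7 bases long. The sources used here do not say how the counting treated a fragment on such an overlap.

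KO4 was the highest KO-labelled library in 12 of 13 mRNAs, the exception being mt-Atp8, and WT4 was the lowest WT library in 13 of 13. KO4 lay above WT4 in 6 of 13. Without KO4, 13 mRNAs passed as lower beside 17.2% of all genes, and without WT4, 10 passed beside 19.4%. Without both, in a fit chosen after the data were seen, 13 passed beside 18.7% of all genes. The median log2 fold change of the mRNAs in that fit was -1.11. Leaving out WT1, WT2, WT3, KO1 or KO3 left 5 of 13, and leaving out KO2 left 6, beside 12.9% to 17.6% of all genes called lower. The 5 mRNAs called in all 8 of these fits with 1 library left out were mt-Cytb, mt-Nd1, mt-Nd2, mt-Nd4 and mt-Co2. The share of all genes called in all 8 is not given here, so this count has no background to be read against. Without both WT1 and WT2, 2 of 13 passed, mt-Cytb (adjusted p = 0.0429) and mt-Nd2 (adjusted p = 0.0462), beside 7.14% of all genes called lower in that fit, and the median was -0.74.

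**Figure D2:**
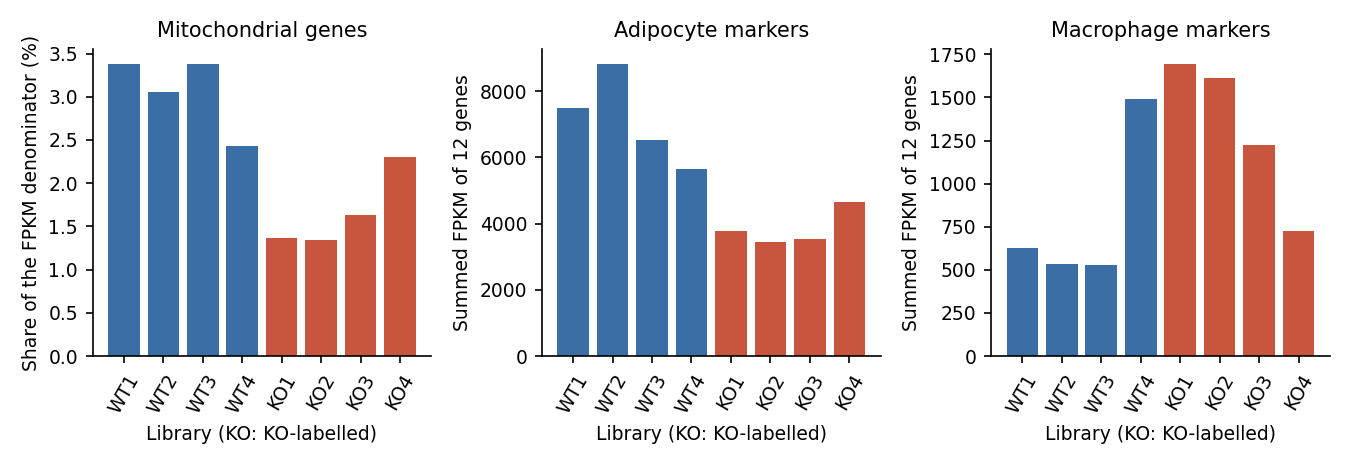
Share of the FPKM denominator that the reads of the 34 mitochondrial genes made up (percent) and summed FPKM of 12 adipocyte and 12 macrophage markers, with 1 bar for each of the 8 libraries (WT blue, KO-labelled red). WT4 has the lowest mitochondrial share (2.43%) and the highest macrophage sum of the WT libraries, and KO4 has the highest mitochondrial share (2.30%) and the lowest macrophage sum of the KO-labelled ones.

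Markers of cell types moved with the groups and with these libraries, and their calls stand beside 18.6% of all genes called lower and 11.7% called higher. The 12 adipocyte markers had summed levels of 7494, 8826, 6531 and 5645 FPKM for WT1 to WT4 and 3772, 3458, 3547 and 4662 FPKM for KO1 to KO4, and 11 of 12 passed as lower. The 12 macrophage markers summed to 628, 533, 529 and 1488 FPKM in WT and to 1695, 1615, 1222 and 725 FPKM in the KO-labelled libraries, and 5 of 12 passed as higher. WT4 thus stood among the KO-labelled libraries in its macrophage sum and KO4 nearer to WT1 to WT3. The 10 endothelial markers summed to 218 to 297 FPKM in WT and 150 to 178 FPKM in the KO-labelled libraries, with 8 of 10 lower. The 9 hepatocyte markers summed to 175, 546, 76.5 and 48.5 FPKM in WT and 27.0 to 35.8 FPKM in the KO-labelled libraries, WT1 and WT2 being highest. The 8 epididymis or testis markers reached 51.8 FPKM in WT2 and 207 FPKM in KO1 and were at or under 23.8 FPKM in the other libraries. The 8 brown or beige adipocyte markers summed to 14.6 to 29.9 FPKM in WT and 4.29 to 8.31 FPKM in the KO-labelled libraries. In these sums Cox8b, a complex IV subunit, averaged 16.9 FPKM over WT and 3.34 FPKM over the KO-labelled libraries. Of 5 tested, 3 passed as lower (Cox8b, Otop1 and Cidea) and 1 as higher (Ppargc1a). Otop1 and Cidea passed the filter on low values only through WT, and Ppargc1a only through the KO-labelled libraries. Ucp1, which defines brown fat, was between 0 and 0.06 FPKM in every library. The part of these cell types in the mitochondrial values was not tested.

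The size of the difference depended on the scaling. Scaled to an FPKM sum of 1000000 in each library, all 13 mRNAs kept a negative log2 fold change, with a median of -0.58 where the median of all genes was 0.24, and 5 of 13 passed as lower beside 8.26% of all genes. These 5 were mt-Cytb (-1.0), mt-Nd2 (-0.94), mt-Nd4 (-0.89), mt-Co2 (-0.58) and mt-Nd1 (-0.55). Scaled to the reads in nuclear listed genes, 5 of 13 passed beside 9.19% of all genes, with a median of -0.62 against 0.17 for all genes. Quantile normalization, which gives every library the same set of values, left 4 of 13 as lower beside 14.6% of all genes. It turned mt-Co1 to 0.37 (limma adjusted p = 0.0842) and mt-Nd1 to 0.16 (limma adjusted p = 0.352), neither of which passed. The direction of these 2 mRNAs therefore changed with that scaling, and that of the other 11 did not.

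Relative amounts within the set of 13 mRNAs do not depend on a scaling that multiplies each library by 1 factor, as all those tried here except quantile normalization do. Of the reads in the 13 mRNAs, mt-Co1 held 36.8%, 36.8%, 37.04% and 38.6% in WT and 41.7%, 43.8%, 42.4% and 40.8% in the KO-labelled libraries. The means were 37.3% ± 0.840 and 42.2% ± 1.26 (SD, n = 4 each), so the share of mt-Co1 was 4.87 percentage points larger in the KO-labelled libraries. That of mt-Cytb went the other way, with 17.4%, 17.7%, 16.2% and 15.2% in WT and 14.5%, 12.8%, 12.1% and 12.4% in the KO-labelled libraries, a difference of -3.67 points. The shares of mt-Nd2 (10.1% ± 0.655 in WT, 8.19% ± 0.369 in the KO-labelled libraries) and mt-Nd4 (10.003% ± 0.379 and 8.41% ± 0.254) were also smaller. In these 4 mRNAs the groups did not overlap, although KO4 and WT4 are the closest libraries in overall level. The other abundant mRNAs overlapped, with mean differences of 0.73 points for mt-Nd1, 0.97 for mt-Nd5 and 0.55 for mt-Nd6. Among the 5 mRNAs without a near-identical nuclear copy, taken as a whole of their own, the groups did not overlap for mt-Cytb (-5.36 points), mt-Nd1 (2.95) and mt-Nd6 (1.54), and they overlapped for mt-Nd2 (-2.55) and mt-Nd5 (3.42). Shares add up to 100%, so a larger share of 1 mRNA lowers the others by construction, and no test was made.

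**Figure D3:**
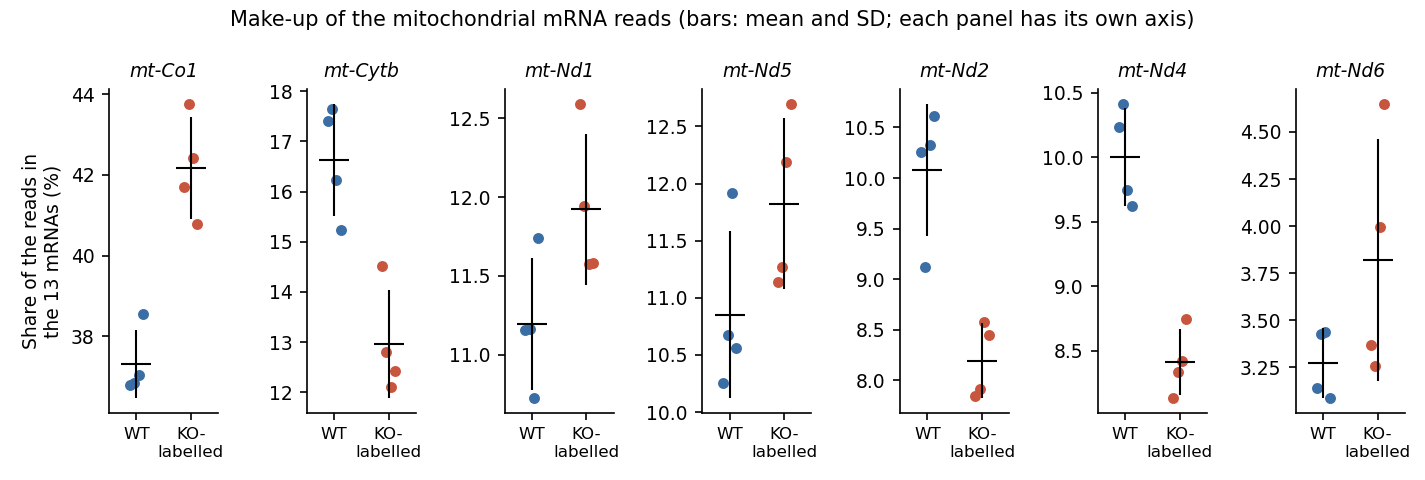
Share of the reads of the 13 mitochondrial mRNAs that fell on each abundant mRNA, in percent, with 1 point per library, the mean and SD as bars and each panel on its own axis. The 4 KO-labelled libraries lie above the 4 WT libraries for mt-Co1 and below them for mt-Cytb, mt-Nd2 and mt-Nd4.

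The order of the mRNAs by FPKM differed between the groups in the same way, a pattern chosen after the values were seen. In all 4 WT libraries mt-Cytb was higher per length than mt-Nd1, and in all 4 KO-labelled libraries mt-Nd1 was higher than mt-Cytb. Likewise mt-Nd4 was above mt-Nd5 and mt-Nd6 in all 4 WT libraries and below both in all 4 KO-labelled libraries. In both groups mt-Co1 came highest and mt-Atp8 lowest.

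The nuclear genome of the mouse carries inserted copies of mitochondrial DNA, and several are annotated as genes. A run of 7 annotated unprocessed pseudogenes on chromosome 1 (24611535 to 24616197, minus strand, 4663 bases) held matches at 99% identity or more to 8 mitochondrial mRNAs (mt-Atp8 through its overlap with mt-Atp6 only), all lying between positions 6390 and 11042 of the mitochondrial chromosome. Identity outside these matches was not measured. Gm28661 matched mt-Co2 over 681 bases, Gm10925 matched mt-Atp6 over 678 bases and Gm28437 matched mt-Co3 over 783 bases, each with no mismatch. Gm10222 matched mt-Nd4l over 294 bases and Gm28439 the first 876 bases of mt-Nd4 (63.6% of its length), also with no mismatch. The other 2 each differed by 1 base. Gm28438 has the substitution T3C against mt-Nd3 over 345 matched bases, and Gm29216 has A1066T against mt-Co1 over 483 bases (31.3% of its length), positions counted from 1 at the start of the mitochondrial transcript. Windows around these bases are shown from the GENCODE M21 transcripts, with the differing base in capitals, to show how little sequence separates a nuclear copy from its source.
mt-Nd3: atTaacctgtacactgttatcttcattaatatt
Gm28438: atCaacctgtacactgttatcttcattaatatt
mt-Co1: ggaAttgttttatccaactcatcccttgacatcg
Gm29216: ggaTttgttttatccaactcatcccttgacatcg
A read that misses such a base fits both places equally well, and the sources used here do not say how reads with several matches were counted.

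The 5 mRNAs with at least 90% of their length matched at this identity (mt-Co2, mt-Atp6, mt-Co3, mt-Nd3 and mt-Nd4l) lay between 8.78 and 175 FPKM over all libraries. The 5 with no such match (mt-Nd1, mt-Nd2, mt-Nd5, mt-Nd6 and mt-Cytb) lay between 811 and 5032 FPKM. The 3 matched in part were mt-Co1, mt-Nd4 and mt-Atp8, and mt-Atp8, matched over its last 43 bases only, was lower than all others. By group, in the matched set 3 of 5 passed as lower, with a median log2 fold change of -0.85, and in the unmatched set 4 of 5 passed, with a median of -0.82; the difference between the sets was not tested. The search covered annotated nuclear transcripts and not the nuclear genome, and the part of the copies in the levels was not tested.

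**Figure D4:**
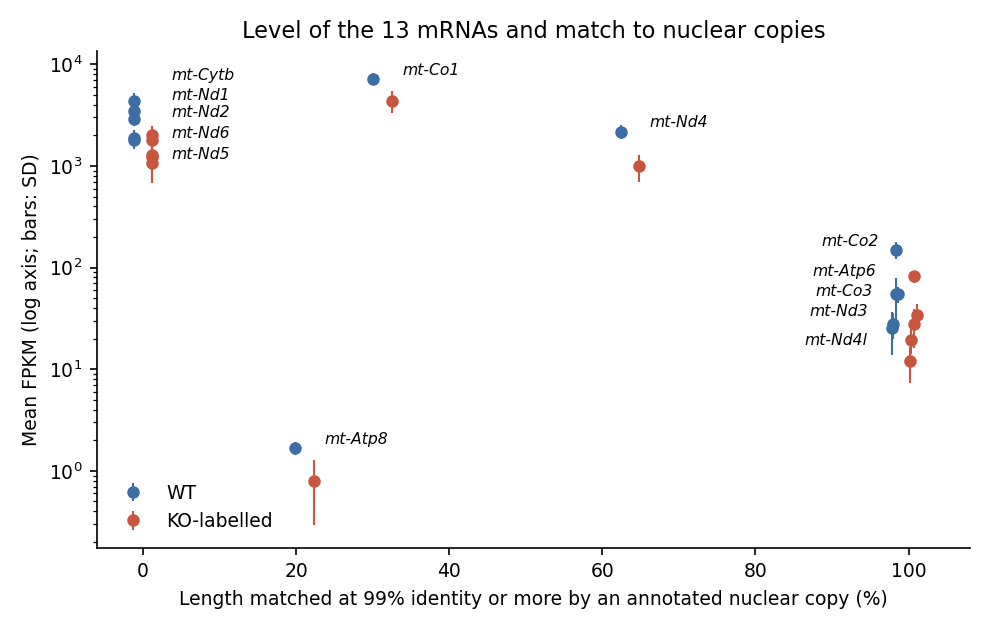
Mean FPKM of the 13 mitochondrial mRNAs (log axis, bars are the SD over 4 libraries) against the share of each mRNA's length that an annotated nuclear copy matched at 99% identity or more, with WT and KO-labelled points set slightly apart sideways. The means of the 5 mRNAs near 100% lie between 11.9 and 149 FPKM, and those of the 5 at 0% between 1062 and 4382 FPKM.

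Reads were also assigned to the copies in the table, though they may stem from the mitochondrial genes. All 7 copies on chromosome 1 had a lower mean in the KO-labelled libraries, as the mitochondrial genes that they match did. The WT libraries had 22.5, 16.4, 17.3 and 11.3 FPKM of Gm28439 and the KO-labelled ones 4.39 to 9.68 FPKM, without overlap (log2 fold change -1.32 ± 0.26, limma adjusted p = 0.00618). Gm28661 (-0.68 ± 0.19, limma adjusted p = 0.0248), Gm10925 (-0.91 ± 0.29, 0.0414) and Gm10222 (-1.01 ± 0.32, 0.0413) also passed as lower. Gm28437 (-0.83 ± 0.30, 0.0659), Gm28438 (-0.43 ± 0.26, 0.248) and Gm29216 (-1.23 ± 0.60, 0.153, with 129.6 FPKM in WT3 and at most 28.1 FPKM in the other 7 libraries) did not pass. Because of the near-identity, reads of these copies and of the mitochondrial genes cannot be told apart here, and the values of both are uncertain for that reason. A full-length but more diverged copy of mt-Co1 on chromosome 2, Gm13340 (97.6% identity), averaged 2.12 ± 0.669 FPKM over WT and 1.30 ± 0.369 FPKM over the KO-labelled libraries (SD, n = 4 each) and did not pass (limma adjusted p = 0.1001).

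The 2 rRNAs form the cores of the small and large subunits of the mitochondrial ribosome. The large-subunit rRNA, mt-Rnr2 (chromosome M, 1094 to 2675), was at 267, 184, 228 and 149 FPKM in WT and at 90.1, 89.6, 101 and 151 FPKM in the KO-labelled libraries. Only KO4 overlapped with WT, lying just above WT4, and mt-Rnr2 passed as lower (log2 fold change -0.94 ± 0.22, limma adjusted p = 0.0146). The small-subunit rRNA, mt-Rnr1 (70 to 1024), was at 210, 168, 181 and 141 FPKM against 121, 112, 136 and 185 FPKM. KO4 lay above 3 of 4 WT libraries, and mt-Rnr1 did not pass (-0.35 ± 0.18, limma adjusted p = 0.173), but did without KO4 (-0.50, adjusted p = 0.0406). Poly(A) selection retains only part of the rRNA, and these are levels in the RNA that it retained.

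**Figure D5:**
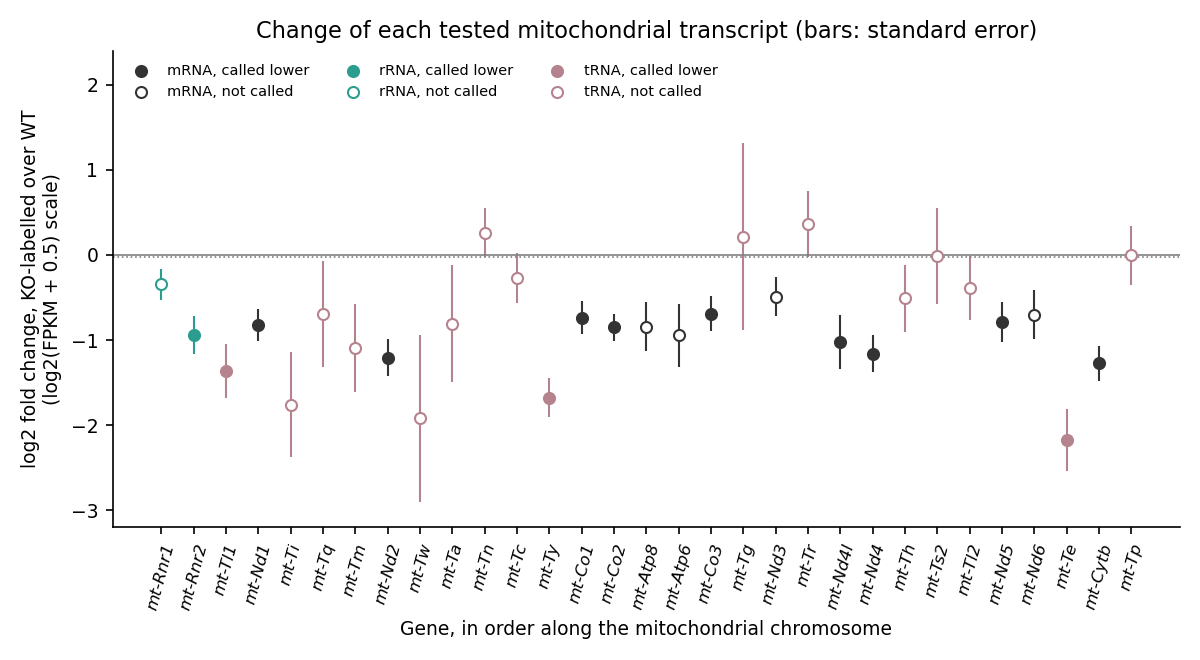
Log2 fold change of each tested mitochondrial transcript, KO-labelled against WT, on the log2(FPKM + 0.5) scale, with the standard error of limma as bars, genes in their order along the chromosome, filled points for calls and a dotted line at the median of all genes. All 13 mRNAs and both rRNAs lie below 0, a direction that quantile normalization turned for mt-Co1 and mt-Nd1, and the tRNAs lie on both sides of it.

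The tRNAs were mixed. Of 19 in the table, 16 passed the filter on low values, 3 of 16 were called lower (18.8%, beside 18.6% of all genes tested) and none higher. As a count this is the share of all genes, and the tRNAs are described one by one. The filter left out mt-Tv, mt-Ts1 and mt-Tt, which had at most 6 reads in any library. The genes mt-Ti and mt-Tm passed it only through their WT libraries. In 7 of the 19, no library reached 20 reads. Mature tRNAs lack a long poly(A) tail, and these gene-level values hold mature and unprocessed tRNA together. The 3 called tRNAs are shown first and then the 3 most abundant among those not called, from GENCODE M21 (GRCm38), 5′ to 3′ as transcribed, with the anticodon in capitals. All but mt-Tl1 lie on the strand that also carries mt-Nd6. As for mt-Nd6, their values may include reads of transcripts from the opposite strand.
mt-Te: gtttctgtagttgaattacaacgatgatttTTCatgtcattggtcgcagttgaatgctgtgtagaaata
mt-Ty: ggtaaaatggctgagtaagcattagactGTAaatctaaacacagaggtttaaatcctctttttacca
mt-Tl1: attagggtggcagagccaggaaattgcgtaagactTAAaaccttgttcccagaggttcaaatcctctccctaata
mt-Tp: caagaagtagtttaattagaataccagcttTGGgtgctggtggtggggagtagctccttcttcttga
mt-Tc: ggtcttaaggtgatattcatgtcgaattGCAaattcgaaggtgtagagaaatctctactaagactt
mt-Tn: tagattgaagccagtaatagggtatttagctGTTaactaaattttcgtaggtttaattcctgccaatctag

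The glutamate tRNA mt-Te (chrM:14071-14139), which lies between mt-Nd6 and mt-Cytb, had 110, 112, 104 and 57 reads in WT and 17, 21, 13 and 41 reads in the KO-labelled libraries. It averaged 57.4 ± 16 FPKM over WT and 13.2 ± 7.51 FPKM over the KO-labelled libraries (SD, n = 4 each), without overlap. It passed as lower (log2 fold change -2.17 ± 0.36, limma adjusted p = 0.00308).

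The tyrosine tRNA mt-Ty (chrM:5260-5326), which lies next to mt-Co1 on the opposite strand, had 88, 67, 67 and 46 reads in WT and 33, 15, 17 and 23 reads in the KO-labelled libraries. Its levels of 41.2 ± 9.81 and 12.6 ± 3.49 FPKM (SD, n = 4 each) did not overlap (log2 fold change -1.68 ± 0.23, limma adjusted p = 0.00121). The leucine tRNA mt-Tl1 (chrM:2676-2750), which lies directly between mt-Rnr2 and mt-Nd1, had 65, 42, 51 and 36 reads in WT and 30, 29, 11 and 13 reads in the KO-labelled libraries. It passed as lower without overlap in FPKM (-1.36 ± 0.31, limma adjusted p = 0.0128). All 3 were called in each of the 8 fits with 1 library left out, for which the share of all genes is not given here. Without WT1 and WT2, mt-Te (adjusted p = 0.0481) and mt-Ty (adjusted p = 0.0223) passed, and mt-Tl1 did not (adjusted p = 0.103).

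The proline tRNA mt-Tp (chrM:15356-15422), the last gene before the control region, was the most abundant tRNA per length. It had 1933, 1764, 2213 and 1564 reads in WT and 1119, 1692, 2421 and 3161 reads in the KO-labelled libraries. The KO-labelled libraries spanned the whole WT range and beyond it on both sides (log2 fold change -0.00 ± 0.34, limma adjusted p = 0.994). The cysteine tRNA mt-Tc (chrM:5192-5257) averaged 118 ± 34.7 FPKM over WT and 98.7 ± 34.1 FPKM over the KO-labelled libraries, and the asparagine tRNA mt-Tn (chrM:5089-5159) at 30.5 ± 8.42 and 37.6 ± 15.2 FPKM (SD, n = 4 each). Neither passed (limma adjusted p = 0.510 and 0.519). Both are neighbours of mt-Ty on the same strand, and the difference between their changes and that of mt-Ty was not tested.

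Among the other tRNAs, mt-Tr (log2 fold change 0.36) and mt-Tg (0.21) had higher fitted levels in the KO-labelled libraries, mt-Ts2 was at -0.01, and mt-Tl2 (-0.39), mt-Th (-0.51), mt-Tq (-0.69), mt-Ta (-0.81), mt-Tm (-1.09), mt-Ti (-1.76) and mt-Tw (-1.92) had lower ones. None of these passed, with limma adjusted p from 0.0599 for mt-Ti to 0.993 for mt-Ts2. The lower of these values rest on few reads, at most 7 in any library for mt-Ti, mt-Tq, mt-Ta and mt-Tm.

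Counts of nuclear genes that serve mitochondrial DNA and its RNAs are read against the 11.7% of all tested genes called higher and the 18.6% called lower. Of 21 genes of mitochondrial transcription and replication, 1 passed as higher and none as lower, with a median log2 fold change of 0.04. This gene was Tfam, which packs mitochondrial DNA and starts its transcription (3.52 ± 0.502 FPKM for WT, 4.48 ± 0.124 FPKM for the KO-labelled libraries, SD, n = 4 each; log2 fold change 0.31 ± 0.10, limma adjusted p = 0.0378). Of 10 tested regulators of mitochondrial biogenesis, 3 passed as higher and none as lower: Tfam again, Ppara, a fatty acid-sensing nuclear receptor (0.77 ± 0.19), and the coactivator Ppargc1a (0.54 ± 0.16), which averaged 0.422 ± 0.119 and 0.841 ± 0.150 FPKM (SD, n = 4 each) and passed the filter on low values only through the KO-labelled libraries.

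Of 24 tested genes of mitochondrial RNA processing, polyadenylation and decay, 6 passed as lower and 1 as higher (median -0.16), again beside 18.6% and 11.7% of all genes. Those named by the smallest adjusted p were Rexo2, which degrades very short RNAs (-0.77 ± 0.08), Mrpl12, a ribosomal protein that also binds the mitochondrial RNA polymerase (-0.89 ± 0.12), Tbrg4, a FASTK family protein (-0.39 ± 0.07), and, higher, Pnpt1, the mitochondrial RNA-degrading phosphorylase (0.46 ± 0.12). Of 23 genes of tRNA charging, 2 passed as lower, Gatb (-0.35 ± 0.10) and Aars2 (-0.27 ± 0.09). None of 14 tRNA modification genes passed in limma either way, and its 2 most abundant members were Nsun2 (0.02 ± 0.07) and Trit1 (0.44 ± 0.17, limma adjusted p = 0.0830). Of 14 tested genes of mitochondrial translation, which are translation factors and genes linked to them, 3 passed as lower. These were the elongation factors Tufm (-0.54 ± 0.10) and Gfm1 (-0.37 ± 0.09) and the recycling factor Mrrf (-0.29 ± 0.09). Nothing particular to these lists is read from these counts.

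These counts depended on the scaling and on the WT libraries. Scaled to a sum of 1000000, transcription and replication had 6 higher and 0 lower, RNA processing 7 and 2, and tRNA charging 7 and 0. In the same scaling tRNA modification had 4 and 0, translation 3 and 1, and biogenesis regulators 5 and 0. Of all genes, 29.3% were called higher there and 8.26% lower. Without WT1 and WT2, the calls left in these 6 lists were 3 lower ones in RNA processing, where 5.06% of all genes were called higher and 7.14% lower.

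Many nuclear subunits of the same complexes passed as lower too, with medians closer to 0 than that of the mitochondrial mRNAs, beside 18.6% of all genes called lower. In complex I, 19 of 36 tested subunits passed as lower (median -0.53), among them Ndufb8 (-0.76 ± 0.15), Ndufc1 (-0.57 ± 0.11), Ndufab1 (-0.59 ± 0.12) and Ndufb5 (-0.43 ± 0.09). In complex III, 6 of 9 passed as lower (median -0.48), among them Uqcrq (-1.0 ± 0.24), Uqcrh (-0.34 ± 0.09), Uqcr11 (-1.22 ± 0.32) and Uqcr10 (-0.56 ± 0.16). In complex IV, 6 of 13 passed as lower (median -0.44), among them Cox5a (-0.74 ± 0.10), Cox8b (-2.19 ± 0.32), Ndufa4 (-0.60 ± 0.13) and Cox7a2 (-0.50 ± 0.12).

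In the ATP synthase, 10 of 16 tested nuclear subunits passed as lower (median -0.48), among them Atp5f1 (-0.62 ± 0.09), Atp5d (-0.71 ± 0.13), Atp5a1 (-0.46 ± 0.10) and Atp5o (-0.76 ± 0.17). Complex II, the succinate dehydrogenase, has no mitochondrial-encoded subunit, and 3 of its 4 subunits passed as lower (median -0.38): Sdhd (-0.55 ± 0.13), Sdhc (-0.41 ± 0.10) and Sdha (-0.35 ± 0.11). No nuclear subunit of these 5 complexes passed as higher. Scaled to a sum of 1000000, 7 of complex I, 0 of complex II, 2 of complex III, 3 of complex IV and 3 of the ATP synthase passed as lower and 1 of the ATP synthase as higher, beside 8.26% of all genes called lower. Without WT1 and WT2 the lower calls were 1, 0, 0, 2 and 1 in the same order, beside 7.14% of all genes. The difference between the mitochondrial and the nuclear subunits was not tested.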

How the data were processed

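Poly(A) RNA of 8 libraries (4 WT, 4 KO-labelled) was analysed. The authors deposited FPKM values for 28295 genes. The submitters' processing notes name HISAT2 2.0.5, featureCounts and mm10. Not given in the sources used here are annotation release, strand setting and handling of reads with several matches.

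The test was limma 3.58.1 (R 4.3.3; trend, robust, two-sided) on log2(FPKM + 0.5), with Benjamini-Hochberg adjustment over 14400 genes, those whose mean FPKM reached 0.5. This scale understates changes of low genes. Whole reads were recovered with GENCODE M21 exon lengths (28255 gene IDs matched). Of the values between 0.5 and 200 reads, 97.8% to 98.0% per library lay within 0.02 of a whole number. Transcripts were matched to nuclear ones with BLAST 2.17.0. Coordinates are 1-based, GRCm38. The fit was tested on simulated data. Members and gene lists were chosen with earlier results of these data known. Every mitochondrial gene is named. From each list other than the marker lists, up to 4 called genes with the smallest adjusted p are named, or the 2 most abundant where none was called. Marker lists are given by sums and counts, and only a few of their genes are named, outside this rule. Of the 10 marker lists, fibroblast (2 of 8 lower), skeletal muscle (1 of 2 lower), mesothelial (0 of 5) and lymphocyte (1 of 1 higher) are given here only. Alternatives covered pseudocounts, filters, scalings, test, replicate block and omitted libraries.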

Additional observations from a re-analysis of the deposited data

Results flagged for a closer look

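In 75 groups of 4 libraries tested for a single library far from the other 3, 3 libraries passed the cut. Chance gives about 1 in 20 groups, so 3 of 75 is no more than chance gives. The level of mt-Nd3 in KO4 was 27.4 FPKM (236 reads), and the other KO-labelled libraries lay between 16.6 and 16.8 FPKM. That of mt-Te in WT4 was 33.6 FPKM (57 reads), and the other WT libraries lay between 62.5 and 67.8 FPKM. That of Gm29216, the nuclear copy of the end of mt-Co1, was 129.6 FPKM in WT3 (1462 reads), and the other WT libraries lay between 13.1 and 28.1 FPKM.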

How the results depend on the processing

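Over all genes, 1862 to 2794 were lower and 1100 to 1938 higher when 1 library was left out, against 2683 and 1689 with all 8. Scaled to a sum of 1000000, 1190 were lower and 4226 higher; scaled to reads in nuclear listed genes, 1324 and 3893; without WT1 and WT2, 1029 and 729. With the replicate block, 1113 were higher. Of the 13 mRNAs, 9 were lower with all libraries, 5 to 13 with 1 library left out, 5 scaled to a sum of 1000000 or to nuclear reads, 4 with quantile normalization and 2 without WT1 and WT2. Under quantile normalization mt-Nd1 was at 0.16 and mt-Co1 at 0.37; the cause was not tested. Of the 2 rRNAs, 1 was lower with all libraries, 1 to 2 with 1 library left out, 0 without WT1 and WT2 and 2 without WT4 and KO4. Called in all 22 settings were mt-Cytb, mt-Nd2, mt-Te and mt-Ty, and the share of all genes called in every setting is not given here. Deviations of same-numbered libraries from their group means had correlations of -0.06, -0.13, 0.17 and -0.32 across genes, and the main fit did not pair them. Such correlations cannot exclude that the numbers mark pairs. With the number as a replicate block, 4 mRNAs and 0 rRNAs were lower, beside 13.9% of all genes. Mitochondrial reads were 3.98% of listed reads in WT and 2.57% in the KO-labelled libraries, in place of 3.06% and 1.66% of the FPKM denominator. Among mRNAs without near-identical copies only, the share of mt-Cytb differed by -5.36 points. Few reads limit mt-Atp8 and most tRNAs.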
